A study of Homo sapiens and Mus musculus with 24 samples.

Results

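Mouse fibroblasts labelled as isolated from ADT mice were set against mouse fibroblasts labelled as kept to day 7 with DMSO, the usual solvent control of drug experiments. The comparison rests on 4 RNA-seq libraries of the 24 in the series, 2 of each group, and on 14935 of the 39089 genes in the fibroblast table. Members were the libraries whose labels name these conditions, and genes at 1 TPM or more in at least 2 fibroblast columns. TPM is a level per length of transcript, scaled so that the genes of a library sum to a fixed total.

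All fibroblasts are labelled as cancer-associated fibroblasts, as stroma and as WT in their own genotype field, and as isolated from mice with Trp53PC-/- in their genotype. PC is not spelled out, and neither is ADT, which in work on prostate cancer usually stands for androgen deprivation therapy. The ADT libraries came from such mice that are also labelled ADT, and the cells carry the label day 0. Their treatment field gives this origin and names no agent added to the cells. The DMSO libraries came from mice without the ADT label and carry the label day 7. 3 more groups of 2 libraries enter the fit: fibroblasts with 1 µM enzalutamide (an antiandrogen drug) and 5 ng/ml TGF-beta1 together, with 5 ng/ml TGF-beta1 alone, and with 1 µM enzalutamide alone, all labelled day 7 and without the ADT label. The labels state 2 biological replicates per condition, without saying whether these were separate animals or separate dishes of 1 isolate. Mouse origin, day, solvent and the level of Trp53 differ together between the ADT and DMSO groups, so their parts in any difference cannot be told apart.

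Cancer-associated fibroblasts are the connective tissue cells of a tumour. They secrete collagens and other matrix, the proteases that cut it, and growth factors and chemokines that reach the tumour cells and immune cells. Some are contractile, with the actin and myosin genes of smooth muscle, and others mainly secrete inflammatory factors. The p53 protein, product of Trp53, switches on genes that stop the cell cycle or cause cell death after stress. Androgen withdrawal is the main treatment of advanced prostate cancer.

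The depth behind the values was recovered from the smallest steps of the TPM columns. It was 18521357 and 19323360 reads in the ADT libraries, against 19942318 and 17793215 reads in the DMSO libraries. In both DMSO columns, 53 genes, mostly of TGF-beta signalling, stand at 0.3 times whole reads, and those columns sum to 986375 and 986203, short of the fixed total. These genes are left out of every result. Another fibroblast group, labelled Sox4, was kept out of the fit, since its columns carry a median of 0.914 and 0.917 times the same-numbered ADT column over genes at 1 TPM or more and are not taken as independent libraries. The 2 libraries of a group differed by little more than counting noise, with a mean chi-square per gene of 1.69 for the ADT pair and 1.53 for the DMSO pair, where 1 is counting noise alone. P-values below therefore measure the spread between these libraries, which may be technical.

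The libraries labelled as given both agents stand apart from the other day-7 libraries and lie close to the ADT libraries. Their mean chi-square per gene against the ADT libraries ran from 1.85 to 2.64, whereas the ADT libraries differed from the DMSO libraries by 240.7 to 252.5. Trp53 stood at 5.67 and 6.65 TPM in the libraries with both agents. It stood at 5.31 and 6.5 TPM in the ADT libraries and at 134 and 134 TPM in the DMSO libraries. Of the 14935 genes, 2 passed the test between the ADT libraries and the libraries with both agents (0.0134%), the microRNA genes Mir7041 and Mir7050, and 1222 had an unadjusted p under 0.05 in the same limma fit. The label of these 2 libraries is therefore doubtful. The likeness runs both ways, so it casts the same doubt on the ADT label. Which label is at fault, if any, was not tested. The counts over all genes that use the libraries with both agents are given with and without them.

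The ADT and DMSO fibroblasts differed in most genes. By limma with Benjamini-Hochberg adjustment, 11060 of 14935 genes passed at an adjusted p under 0.05, which is 74.1%. Higher levels in the ADT libraries were called for 4646 genes (31.1%), and lower levels for 6414 (42.9%). A change of 2-fold or more, on the log2(TPM + 1) scale used for all differences below, was called for 3391 genes (22.7%), of which 1170 were higher (7.83%) and 2221 lower (14.9%). Without the libraries with both agents the fit called 10968 genes. These shares over all genes are the background against which the counts of each gene list below are to be read.

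The difference across all genes had a median of -0.13 on the log2 scale, and a median size of 0.53 regardless of direction. Median-of-ratios scaling moved the median by 0.12, to -0.01. Under that scaling 5493 genes were called higher and 5532 lower, so the excess of lower calls depends on the scale, and changes of about 0.12 or less have no firm direction. The groups' libraries did not overlap in any of the genes named below as having risen or fallen. The naming rule required this of genes chosen by size or p, so it is no added support. Over all calls, the libraries did not overlap in 4645 of the 4646 higher genes and 6414 of the 6414 lower genes. The ADT libraries held 12834 and 12867 genes at 1 TPM or more, against 13790.0 and 13821 in the DMSO libraries.

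**Figure D1:**
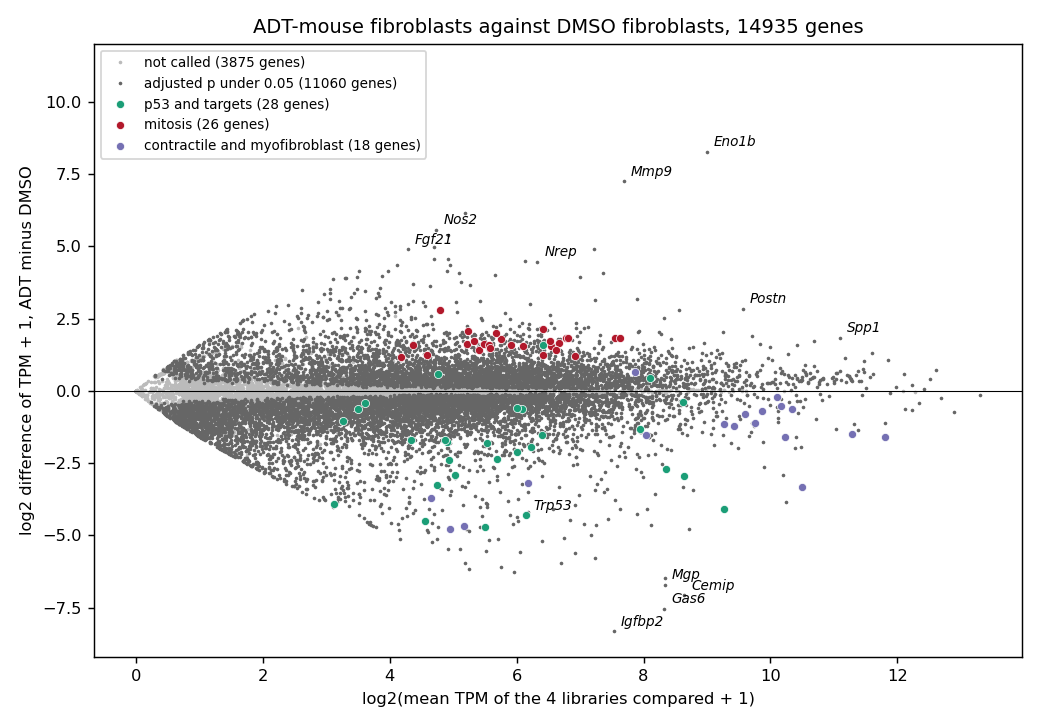
Log2 difference of TPM + 1 between ADT and DMSO fibroblasts (vertical) against the mean level of the 4 libraries (horizontal, log2 of TPM + 1) for 14935 genes, with 11060 genes past an adjusted p of 0.05 in dark grey and 3 gene lists in colour. All 26 mitosis genes lie above 0, and 25 of the 28 p53 genes and 17 of the 18 contractile genes lie below it.

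The labelled cell type was checked on markers. The 15 fibroblast markers were all at 1 TPM or more in the DMSO libraries, and 14 of them in the ADT libraries, with Lum (lumican, a collagen-binding proteoglycan) at 0.141 and 0.957 TPM in the ADT libraries. Their summed level was 23697 and 23932 TPM in the ADT libraries, against 22978 and 23066 TPM in the DMSO libraries. Of the 15, 5 rose, 6 fell and 4 did not pass. Vim, the intermediate filament of mesenchymal cells, had 4423 and 4376 TPM in the ADT libraries, against 4366 and 4362 TPM in the DMSO libraries, an adjusted p of 0.38 by limma. Pdgfra, a PDGF receptor of fibroblasts, had 74.1 and 77.9 TPM in the ADT libraries, against 73.7 and 72.2 TPM in the DMSO libraries, with an adjusted p of 0.24 by limma.

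Single markers moved far. S100a4, a calcium-binding protein also called fibroblast-specific protein, fell to 147 and 168 TPM in the ADT libraries, against 2274 and 2243 TPM in the DMSO libraries, a log2 difference of -3.84 ± 0.06 (SE). Postn, periostin, a matrix protein of activated fibroblasts, rose to 1319 and 1341 TPM in the ADT libraries, against 186 and 183 TPM in the DMSO libraries. Thy1, a surface glycoprotein of fibroblasts, fell by 0.75 on the log2 scale. Fap, fibroblast activation protein, was low throughout, at 4.33 and 6.49 TPM in the ADT libraries, against 8.24 and 8.83 TPM in the DMSO libraries. Its adjusted p was 0.0089 by limma and 0.057 in the fit of the ADT and DMSO libraries alone.

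Markers of other cell types were also measured, and some moved with the groups. Markers low in every library were not tested, so each list is given by its summed level and the members at 1 TPM or more. Epithelial markers summed to 28.2 and 27.2 TPM in the ADT libraries, against 21.3 and 20.6 TPM in the DMSO libraries, and Krt19, a keratin, made up most of it. Of their 17 genes in the table, 3 and 2 were at 1 TPM or more in the ADT libraries, against 1 in each DMSO library. Epcam, the epithelial adhesion molecule, was under 1 TPM in all 4 libraries, and Pbsn, the mouse prostate secretion gene, was at 0. Macrophage and leukocyte markers summed to 34.9 and 34.8 TPM in the ADT libraries, against 117 and 114 TPM in the DMSO libraries. Of these 17 genes, 5 were at 1 TPM or more in each ADT library, against 10 in each DMSO library. Lyz2, a lysozyme of macrophages, made up most of the DMSO sum, with 4.72 and 3.36 TPM in the ADT libraries, against 81.96 and 78.3 TPM in the DMSO libraries. Not every marker of this list fell, as 2 of the 10 tested rose. Ptprc, the pan-leukocyte gene, was at most 0.38 TPM in any of the 4, and Cd3e, a T cell gene, was at 0.

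Endothelial markers summed to 7.91 and 6.57 TPM in the ADT libraries, against 21.8 and 20.6 TPM in the DMSO libraries. Of these 12 genes, 1 was at 1 TPM or more in each ADT library, against 4 and 5 in the DMSO libraries. Emcn, a sialomucin of capillary endothelium, was at 0 in both ADT libraries, against 9.64 and 10.8 TPM in the DMSO libraries, while Cldn5, a defining endothelial claudin, was at 0 in all 4. Not every marker of this list was lower. Of the 4 tested, 3 fell, and the 1 that did not pass made up most of the ADT sum. Pecam1, under 1 TPM in all 4 libraries, had 0.484 and 0.298 TPM in the ADT pair, against 0.276 and 0.103 TPM in the DMSO pair. Glial and neural markers summed to 511 and 524 TPM in the ADT libraries, against 197 and 206 TPM in the DMSO libraries, and 2 of the 9 genes were at 1 TPM or more in each ADT library, against 7 and 6 in the DMSO libraries. Most of the sum was Nes and Tubb3 in the ADT libraries. Nes, the intermediate filament nestin, stood at 265 and 273 TPM in the ADT libraries, against 29.6 and 29.03 TPM in the DMSO libraries. Tubb3, a tubulin of neurons, stood at 245 and 250.0 TPM in the ADT libraries, against 132 and 139.7 TPM in the DMSO libraries. Sox10, the glial transcription factor, was at 0 in both ADT libraries and at 4.57 and 5.32 TPM in the DMSO libraries. Ngfr, the low-affinity nerve growth factor receptor, was likewise at 0 in both ADT libraries, against 23.1 and 24.1 TPM in the DMSO libraries. Fat markers summed to 33.5 and 28.7 TPM in the ADT libraries, against 38.6 and 36.8 TPM in the DMSO libraries, with Lep, the fat-cell hormone, at 0 in all 4. Skeletal muscle markers summed to 25.6 and 24.8 TPM in the ADT libraries, against 57.3 and 55.7 TPM in the DMSO libraries, nearly all of it Acta1, with Myod1, the muscle master regulator, at 0. In these bulk libraries fewer cells of a type and less RNA per cell cannot be told apart, and the part of such cells in the results below was not tested.

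Trp53, which the labels name as deleted in the mice, differed between the groups. It had 5.31 and 6.5 TPM in the ADT libraries, against 134 and 134 TPM in the DMSO libraries, a log2 difference of -4.29 ± 0.09 (SE) and an adjusted p of 3.7e-09 by limma. The label names the same Trp53 deletion for the mice of both groups. The table gives 1 value per gene, so it does not show which part of the transcript was read.

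The p53 target genes were low where Trp53 was low. Of 28 genes of p53 and its targets, 25 fell and 3 rose in the ADT libraries, 20 of the falls by 2-fold or more, with a median log2 difference of -1.78 against -0.13 over all genes. Cdkn1a, the p21 inhibitor of cyclin-dependent kinases, had 93.1 and 89.1 TPM in the ADT libraries, against 705 and 703 TPM in the DMSO libraries. Ccng1, cyclin G1, had 67.3 and 67.1 TPM in the ADT libraries, against 1177 and 1139.6 TPM in the DMSO libraries, and fell by 4.09 on the log2 scale. Mdm2, the ligase that degrades p53 and is itself a p53 target, had 28.4 and 31.1 TPM in the ADT libraries, against 119 and 117 TPM in the DMSO libraries.

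Other targets in the list followed the same direction over a wide range of sizes. Trp53inp1, a stress protein that binds p53, had 2.4 and 2.22 TPM in the ADT libraries, against 87.7 and 84.8 TPM in the DMSO libraries, and was the member with the largest fall. Phlda3, an inhibitor of AKT, had 85.6 and 85.98 TPM in the ADT libraries, against 560.3 and 569 TPM in the DMSO libraries. The death receptor Fas fell by 3.25 and the pro-apoptotic Bax by 1.31 on the log2 scale. The 3 members that rose were the polo-like kinases Plk2 and Plk3, at 0.43 and 0.59, and the growth arrest gene Gadd45a at 1.57. Cdkn2a, the locus of the p16 inhibitor and of p19ARF, which holds back Mdm2, moved the other way from the p53 targets, with 708 and 676 TPM in the ADT libraries, against 282 and 278 TPM in the DMSO libraries.

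**Figure D2:**
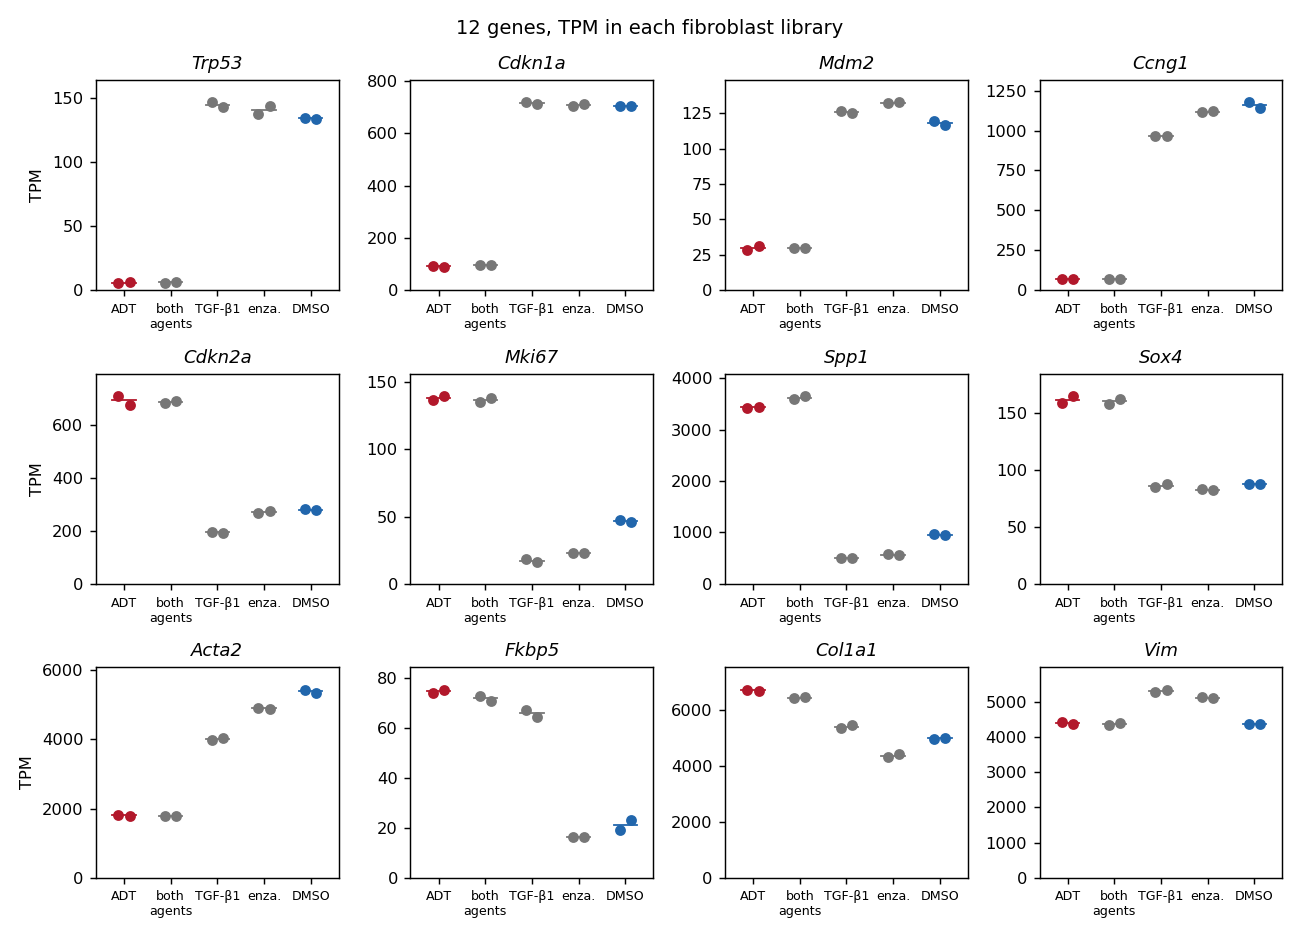
TPM of 12 genes in each of the 10 libraries of 5 fibroblast groups, with each dot a library and each bar the mean of 2. The ADT libraries and those labelled as given both agents lie together in all 12 genes, and Trp53 is near 6 TPM in these 4 libraries and at 134 TPM in both DMSO libraries.

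Genes of DNA replication and mitosis rose. All 26 mitosis genes rose, each by 2-fold or more, with a median log2 difference of 1.62 and a range of 1.19 to 2.79. All 26 DNA replication genes rose, 22 by 2-fold or more, with a median of 1.52. Mki67, the Ki-67 proliferation antigen, had 137 and 139.7 TPM in the ADT libraries, against 47.4 and 46.4 TPM in the DMSO libraries. Ccnb1, the mitotic cyclin B1, had 167 and 175 TPM in the ADT libraries, against 48.1 and 46.04 TPM in the DMSO libraries. Top2a, the topoisomerase that untangles chromosomes, had 288 and 297 TPM in the ADT libraries, against 83.5 and 80.01 TPM in the DMSO libraries. Of the replication genes, Uhrf1, which carries DNA methylation to the new strand, had the largest rise, with 114 and 111 TPM in the ADT libraries, against 21.2 and 21.9 TPM in the DMSO libraries. The helicase subunit Mcm5 rose by 1.77 and the sliding clamp Pcna by 1.44 on the log2 scale.

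The regulators of entry into the cycle were mixed. Of 14 cell cycle inhibitors and G1 cyclins, 6 rose (42.9%, against 31.1% of all genes) and 5 fell (35.7%, against 42.9%). Ccnd2, cyclin D2, fell to 251 and 249 TPM in the ADT libraries, against 552 and 562 TPM in the DMSO libraries. Rbl2, the p130 pocket protein of resting cells, fell to 10.03 and 8.99 TPM in the ADT libraries, against 34.8 and 33.9 TPM in the DMSO libraries. Myc, a driver of growth and division, rose to 145 and 145 TPM in the ADT libraries, against 54.4 and 50.8 TPM in the DMSO libraries.

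The largest rises included secreted enzymes and signals. Mmp9, gelatinase B, had 409 and 410.2 TPM in the ADT libraries, against 1.84 and 1.53 TPM in the DMSO libraries, a log2 difference of 7.26 ± 0.07 (SE) and an adjusted p of 1.1e-10 by limma. Nos2, the inducible nitric oxide synthase, had 51.5 and 50.5 TPM in the ADT libraries, against 0.143 and 0.04 TPM in the DMSO libraries. Fgf21, a stress-induced hormone of the FGF family, had 37.5 and 35.96 TPM in the ADT libraries, against 0.162 and 0.363 TPM in the DMSO libraries. These 3 genes were low in DMSO fibroblasts and plainly present in ADT fibroblasts. In the libraries with TGF-beta1 alone, Mmp9 stood at 38.3 and 37.5 TPM and Fgf21 at 7.44 and 6.71 TPM. Nos2 stood at 0.078 and 0.117 TPM there. Ccl5, a chemokine for T cells and monocytes, had 49.3 and 48.01 TPM in the ADT libraries, against 1.73 and 0.646 TPM in the DMSO libraries. Nrep, a small neuronal regeneration protein, had 154 and 151 TPM in the ADT libraries, against 5.73 and 6.11 TPM in the DMSO libraries.

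The rest of the 12 largest rises were Capn6, a calpain that lacks protease activity, Rcor2, a subunit of a histone demethylase complex, Stmn4, of the stathmin family of microtubule proteins, AA467197, Eno1b, Rn7s1 and Rn7s2. Their log2 differences ran from 4.34 for Stmn4 to 8.27 for Eno1b. Eno1b had 1024 and 1011 TPM in the ADT libraries, against 2.96 and 1.76 TPM in the DMSO libraries, but it is a near-identical copy of Eno1, and the counting could split reads between them. Eno1 itself, the glycolytic enolase, had 3067 and 3094 TPM in the ADT libraries, against 2414 and 2438 TPM in the DMSO libraries. The 7SL RNA genes Rn7s1 and Rn7s2 are near-identical copies too. Rn7s2 had 73.6 and 67.9 TPM in the ADT libraries and 0 in both DMSO libraries. Both varied within 1 group, with 1.3 and 76.4 TPM of Rn7s2 in the libraries with both agents, and Rn7s1 no longer passed when either ADT library or the second DMSO library was left out.

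The largest falls were mostly secreted proteins. Igfbp2, a binding protein for insulin-like growth factors, had 0.102 and 0.198 TPM in the ADT libraries, against 362 and 372 TPM in the DMSO libraries, a log2 difference of -8.32 ± 0.05 (SE) and an adjusted p of 1.4e-11 by limma. Gas6, the ligand of the receptors Axl, Mertk and Tyro3, had 2.32 and 2.57 TPM in the ADT libraries, against 634 and 640.2 TPM in the DMSO libraries. Cemip, which starts the breakdown of hyaluronan, had 4.69 and 5.07 TPM in the ADT libraries, against 788 and 794 TPM in the DMSO libraries. Of these 3 genes, only Igfbp2 was under 1 TPM in both ADT libraries. Mgp, an inhibitor of calcification in matrix, had 4.52 and 5.75 TPM in the ADT libraries, against 631 and 644 TPM in the DMSO libraries. Efemp1, the matrix protein fibulin-3, had 6.56 and 5.96 TPM in the ADT libraries, against 637 and 637 TPM in the DMSO libraries.

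The other 7 were signals, matrix proteins and an enzyme of hormone breakdown. Inhbb, the beta-B chain of activin and inhibin, had 0.655 and 0.533 TPM in the ADT libraries, against 120.4 and 123 TPM in the DMSO libraries. Dio3, the deiodinase that inactivates thyroid hormone, had 0.628 and 0.456 TPM in the ADT libraries, against 105 and 106 TPM in the DMSO libraries. Sfrp1, a secreted Wnt antagonist, had 2.42 and 2.21 TPM in the ADT libraries, against 202 and 204 TPM in the DMSO libraries. Tnfsf15, a TNF family cytokine, Prelp, a matrix proteoglycan, Adamts5, an aggrecan-cutting protease, and Svep1, a large adhesion protein, fell by 6.18, 5.97, 5.77 and 5.61 on the log2 scale.

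**Figure D3:**
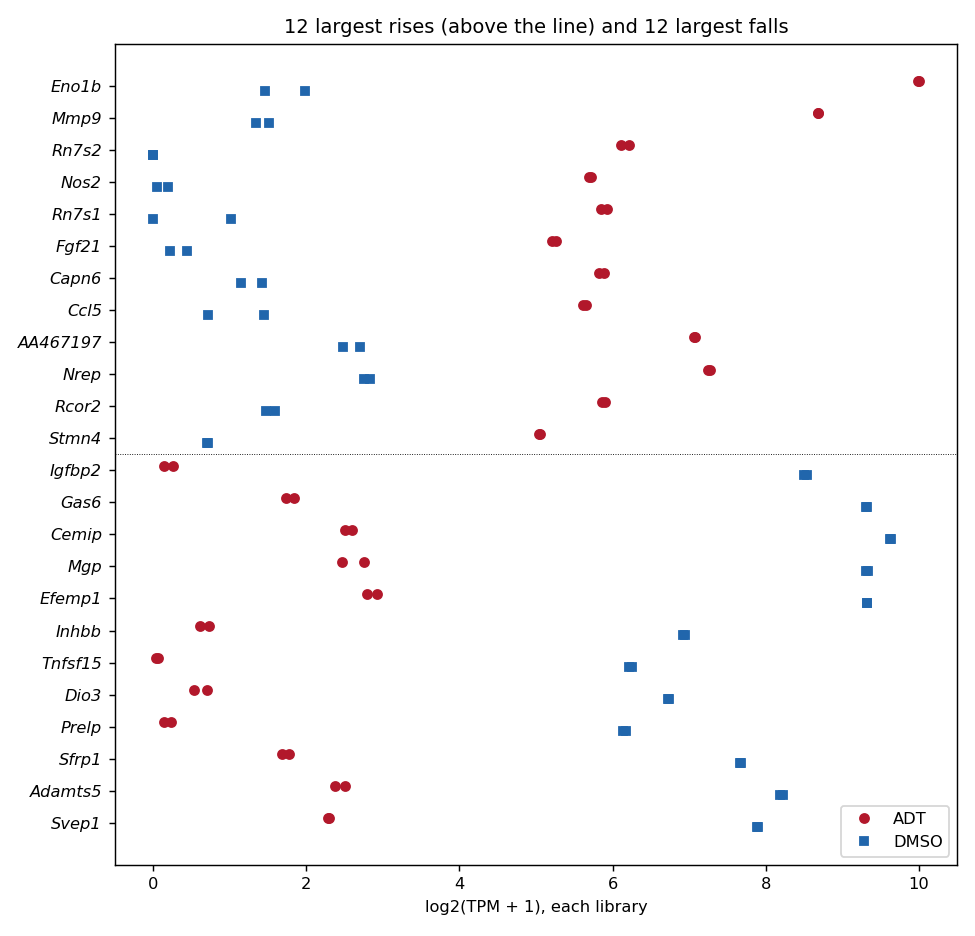
Levels of the 12 genes with the largest rises and the 12 with the largest falls, as log2 of TPM + 1, with each marker 1 library (red circles ADT, blue squares DMSO). The 24 genes were chosen for the size of their difference and for groups that do not overlap. The log2 differences of the rises run from 4.34 for Stmn4 to 8.27 for Eno1b. Those of the falls run from -5.61 for Svep1 to -8.32 for Igfbp2.

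Contractile genes fell together. Of 18 contractile and myofibroblast genes, 17 fell and 1 rose, 12 of the falls by 2-fold or more, with a median log2 difference of -1.35. Acta2, the smooth muscle actin that defines myofibroblasts, had 1809 and 1795 TPM in the ADT libraries, against 5432 and 5343 TPM in the DMSO libraries, so it stayed an abundant transcript. Actg2, the enteric smooth muscle actin, fell more, to 264 and 265 TPM in the ADT libraries, against 2597 and 2675 TPM in the DMSO libraries. Tagln, the actin-binding transgelin, had 1312 and 1325 TPM in the ADT libraries, against 3648 and 3713 TPM in the DMSO libraries. Cnn1, calponin, had 414 and 416 TPM in the ADT libraries, against 956 and 969.6 TPM in the DMSO libraries. The 1 member that rose was Pdlim7, an adaptor of actin filaments, at 0.64 on the log2 scale.

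Several genes of mature smooth muscle and pericytes, the cells around vessels, fell further than Acta2, Tagln and Cnn1. Myh11, smooth muscle myosin, had 1.04 and 1.29 TPM in the ADT libraries, against 60.5 and 56.7 TPM in the DMSO libraries. Des, the muscle filament desmin, had 1.91 and 1.53 TPM in the ADT libraries, against 66.97 and 69.1 TPM in the DMSO libraries. Lmod1, leiomodin, had 13.4 and 13.03 TPM in the ADT libraries, against 129 and 129 TPM in the DMSO libraries. These 3 genes are in both the contractile list and the list of pericyte and smooth muscle markers. In that second list 9 of 11 fell, 8 by 2-fold or more, and its summed level was 183 and 187 TPM in the ADT libraries, against 451 and 448 TPM in the DMSO libraries. Abcc9, a potassium channel subunit of pericytes, had 0.525 and 0.525 TPM in the ADT libraries, against 17.3 and 16.4 TPM in the DMSO libraries. The 2 that rose were Smtn, smoothelin, and Cspg4, the NG2 proteoglycan, at 0.61 and 1.02. Fewer such cells and lower levels per cell cannot be told apart here.

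Collagen genes changed in both directions. Among 10 fibrillar collagen genes, 5 rose (50%, against 31.1% of all genes) and 4 fell (40%, against 42.9%), with 1 rise of 2-fold or more. Col1a1, the main chain of type I collagen, had 6728 and 6689 TPM in the ADT libraries, against 4971 and 5018 TPM in the DMSO libraries. Col3a1, the type III chain, had 1297 and 1333 TPM in the ADT libraries, against 831 and 824 TPM in the DMSO libraries. Col5a3, a chain of type V collagen, which starts fibrils, stood out with 305 and 311 TPM in the ADT libraries, against 17.02 and 17.6 TPM in the DMSO libraries. It was also above DMSO with TGF-beta1 alone, at 236 and 241 TPM, and with enzalutamide alone, at 58.6 and 61.0 TPM. Col5a2, another type V chain, fell to 997 and 1036 TPM in the ADT libraries, against 1732 and 1763 TPM in the DMSO libraries.

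Of 13 collagen genes of the basement membrane, the sheet under epithelia and around vessels, and of other networks, 8 fell and 5 rose, and all 4 tested chains of type IV collagen were among the falls. Col4a1 had 395 and 415 TPM in the ADT libraries, against 1197 and 1217 TPM in the DMSO libraries. Col15a1, a linker collagen of that zone, had 1.05 and 0.817 TPM in the ADT libraries, against 17.4 and 17.4 TPM in the DMSO libraries. Nid2, nidogen-2, from the list of matrix glycoproteins, had 18.7 and 17.8 TPM in the ADT libraries, against 232 and 236 TPM in the DMSO libraries. Hspg2, perlecan, from the list of proteoglycans, had 206 and 215 TPM in the ADT libraries, against 606 and 624 TPM in the DMSO libraries. The rises among the 13 collagen genes were the 3 type VI chains tested, Col7a1 and Col8a1, with Col7a1, the anchoring fibril collagen, highest at 2.47. Col12a1 and Col14a1, which sit on the surface of collagen fibrils, fell by 2.19 and 3.06 on the log2 scale.

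Of 36 matrix glycoproteins tested, 10 rose (27.8%, against 31.1% of all genes) and 21 fell (58.3%, against 42.9%). Of 21 proteoglycans, 6 rose (28.6%) and 12 fell (57.1%). Spp1, osteopontin, an integrin ligand that tumours and wounds induce, had 3421 and 3442 TPM in the ADT libraries, against 962 and 956 TPM in the DMSO libraries, a log2 difference of 1.84 ± 0.02 (SE). Tnc, tenascin-C, of healing and tumour stroma, had 1493 and 1521 TPM in the ADT libraries, against 528 and 523 TPM in the DMSO libraries. The 3 rises with the highest levels in this list were Spp1, Tnc and Postn. Fn1, fibronectin, fell to 3456 and 3576 TPM in the ADT libraries, against 5423 and 5456 TPM in the DMSO libraries. Bgn, biglycan, fell to 3719.6 and 3747 TPM in the ADT libraries, against 5862 and 5978 TPM in the DMSO libraries. Dcn, decorin, did not pass, with 82.6 and 81.2 TPM in the ADT libraries, against 84.97 and 80.5 TPM in the DMSO libraries. Gpc4, a glypican, fell by 2.58 on the log2 scale.

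The enzymes that fold and crosslink collagen all passed the test in either direction. Of 20, 9 were higher (45%, against 31.1% of all genes) and 11 lower (55%, against 42.9%). Lox, lysyl oxidase, which crosslinks collagen, had 1578 and 1629 TPM in the ADT libraries, against 3539.8 and 3520.3 TPM in the DMSO libraries. Its relative Loxl2 moved the other way, with 427 and 431 TPM in the ADT libraries, against 220.4 and 221 TPM in the DMSO libraries. Serpinh1, the collagen chaperone HSP47, had 3269 and 3306 TPM in the ADT libraries, against 2060.1 and 2066 TPM in the DMSO libraries. P4ha3, a prolyl hydroxylase subunit, fell by 2.04, whereas its relative P4ha1 rose by 0.53 on the log2 scale.

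Proteases that cut the matrix moved in both directions, as did the list of their inhibitors and of plasminogen activators. The median log2 difference was -0.24 in both lists, against -0.13 over all genes. Of 21 metalloprotease and Adamts genes, 9 rose (42.9%, against 31.1% of all genes) and 11 fell (52.4%, against 42.9%). Mmp10, stromelysin-2, had 90.7 and 98.6 TPM in the ADT libraries, against 5.21 and 4.56 TPM in the DMSO libraries, and followed Mmp9 as the second largest rise of the list. Mmp3 and Mmp13, a stromelysin and a collagenase, rose by 1.52 and 2.20. Adamts1, a protease of proteoglycans, had 25.4 and 26.4 TPM in the ADT libraries, against 304 and 303 TPM in the DMSO libraries. Adamts4, an aggrecanase, rose to 61.2 and 61.2 TPM in the ADT libraries, against 14.9 and 16.4 TPM in the DMSO libraries. Adamts4 and Adamts5, both aggrecan-cutting enzymes, thus went opposite ways.

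The tissue inhibitors of metalloproteases fell. Timp2 had 277 and 271 TPM in the ADT libraries, against 2059 and 2118 TPM in the DMSO libraries. Timp3 had 234 and 237 TPM in the ADT libraries, against 877 and 865 TPM in the DMSO libraries. Timp1 fell least of the 3, by 0.37 on the log2 scale. Reck, a membrane inhibitor of metalloproteases, had 3.23 and 3.28 TPM in the ADT libraries, against 34.8 and 31.5 TPM in the DMSO libraries. Serpine2, protease nexin-1, an inhibitor of thrombin and plasminogen activators, had 9.46 and 9.76 TPM in the ADT libraries, against 259 and 250.4 TPM in the DMSO libraries. The activators Plau and Plat, which make plasmin, rose by 0.66 and 0.76 on the log2 scale. In the list of 10 inhibitors and plasminogen activator genes, 4 rose (40%, against 31.1% of all genes) and 6 fell (60%, against 42.9%).

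**Figure D4:**
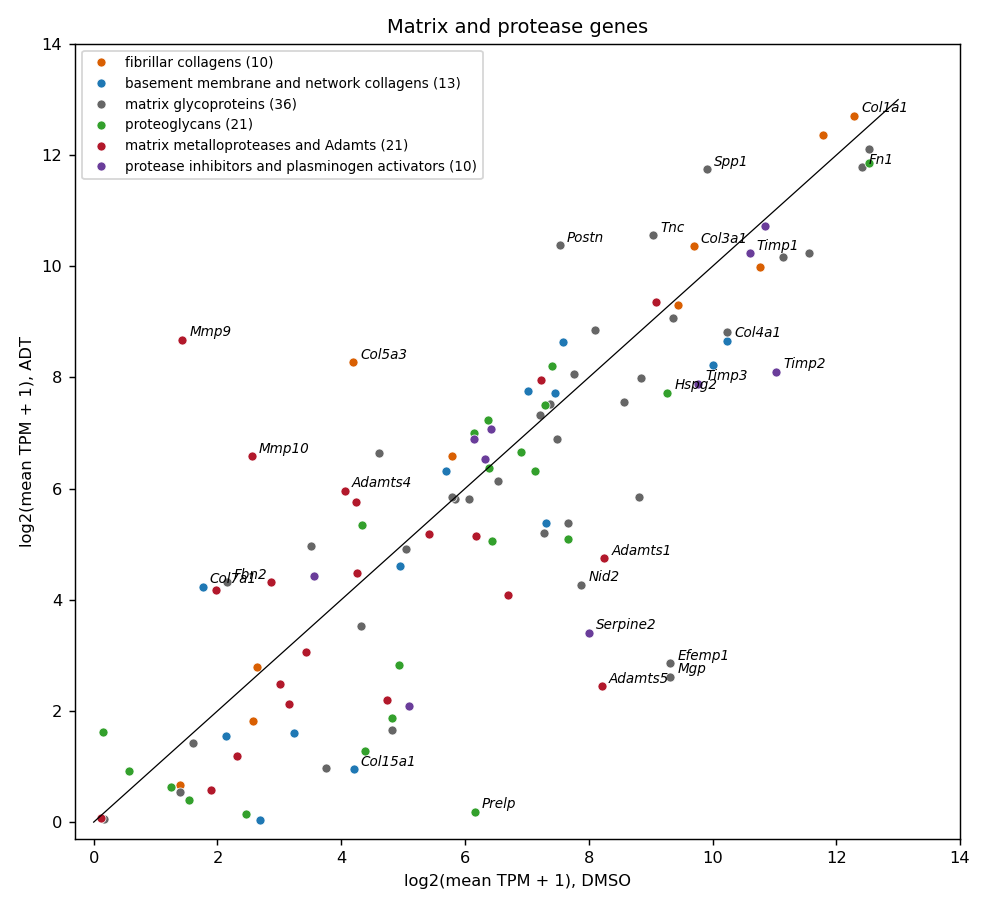
Mean TPM of 2 ADT libraries (vertical) against mean TPM of 2 DMSO libraries (horizontal), both as log2 of TPM + 1, for the members of 6 matrix and protease lists, with the line marking equal levels. Mmp9, Mmp10, Col5a3 and Postn lie far above the line, and Mgp, Efemp1, Prelp, Adamts5 and Serpine2 far below it.

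Integrins, the receptors for matrix, were lower in more genes than they were higher. Of 18 tested, 11 fell (61.1%, against 42.9% of all genes) and 5 rose (27.8%, against 31.1%). Itga11, a collagen receptor of fibroblasts, had 2.7 and 2.41 TPM in the ADT libraries, against 46.1 and 45.7 TPM in the DMSO libraries. Itga1, another collagen-binding chain, had 3.21 and 3.46 TPM in the ADT libraries, against 28.8 and 29.4 TPM in the DMSO libraries, and Itga8 fell by 3.38. Itga5, the fibronectin receptor chain, rose to 836 and 845 TPM in the ADT libraries, against 443 and 451 TPM in the DMSO libraries. Itgb3, a chain of the osteopontin-binding receptor, rose by 2.47 on the log2 scale.

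Chemokines that bind the receptor CXCR2 of neutrophils rose, as did the interferon-induced Cxcl10. Of 19 chemokine ligands tested, 10 rose and 5 fell. Cxcl1 had 214 and 224 TPM in the ADT libraries, against 44.6 and 50.1 TPM in the DMSO libraries. Cxcl5 had 472 and 499 TPM in the ADT libraries, against 118 and 116 TPM in the DMSO libraries. Cxcl2 and Cxcl3 rose as well, by 1.91 and 3.52 on the log2 scale. Cxcl10, which draws T cells, had 63.0 and 63.4 TPM in the ADT libraries, against 3.75 and 2.03 TPM in the DMSO libraries. Cxcl12, the stromal ligand of CXCR4, had 158 and 156 TPM in the ADT libraries, against 87.1 and 86.1 TPM in the DMSO libraries.

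The chemokines Ccl7 and Ccl8, which draw monocytes, fell, unlike Ccl5. Ccl7 had 491 and 493 TPM in the ADT libraries, against 996 and 962 TPM in the DMSO libraries. Ccl2 did not pass, with 633 and 643 TPM in the ADT libraries, against 664 and 652 TPM in the DMSO libraries. Cxcl14, a chemokine of resting stroma, had 4.55 and 3.77 TPM in the ADT libraries, against 56.7 and 55.6 TPM in the DMSO libraries. Csf1, the growth factor of macrophages, had 259 and 271 TPM in the ADT libraries, against 1620.0 and 1661 TPM in the DMSO libraries. The summed macrophage and leukocyte markers given above were lower too, though not every member was. Il34, the other ligand of the receptor of Csf1, rose by 1.78 on the log2 scale. Of 23 cytokines and cytokine receptors, 9 rose (39.1%, against 31.1% of all genes) and 11 fell (47.8%, against 42.9%). Il6st and Osmr, which pass on signals of the IL-6 family, fell by 1.59 and 1.76 on the log2 scale, as did the IL-4 receptor chain Il4ra by 1.57. Of the ligands of that family, Il6 and Lif rose by 0.83 and 1.70, Ctf1 and Clcf1 fell by 1.05 and 0.53, and Il11 did not pass.

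The complement genes, a plasma defence system that fibroblasts also make, fell. Of 16 tested, 15 fell and 1, Cfp (properdin), passed as higher, with 11 falls of 2-fold or more and a median log2 difference of -1.41. Cfp was low, at 7.71 and 5.64 TPM in the ADT libraries, against 3.37 and 5.15 TPM in the DMSO libraries, and did not pass without the first ADT or the first DMSO library (adjusted p = 0.26 in both fits by limma). C3, the central component, had 33.3 and 33.4 TPM in the ADT libraries, against 289 and 281 TPM in the DMSO libraries. C1s1, a protease of the classical pathway, had 58.96 and 60.6 TPM in the ADT libraries, against 133 and 131 TPM in the DMSO libraries. The inhibitors fell as well: Serping1, which blocks C1s, had 19.8 and 19.4 TPM in the ADT libraries, against 63.3 and 67.9 TPM in the DMSO libraries. Cd59a, which blocks the membrane attack complex, had 7.22 and 7.07 TPM in the ADT libraries, against 41.2 and 40.5 TPM in the DMSO libraries. C1qa of this list is also a macrophage gene, and the part of macrophages in its fall of 1.44 on the log2 scale was not tested.

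Targets of the NF-kB factors were split, with 8 of 18 higher (44.4%, against 31.1% of all genes) and 7 lower (38.9%, against 42.9%). Saa3, an acute phase protein, had 13.3 and 15.04 TPM in the ADT libraries, against 312 and 348 TPM in the DMSO libraries. Vcam1, an adhesion molecule for leukocytes, had 91.1 and 90.7 TPM in the ADT libraries, against 524 and 544 TPM in the DMSO libraries. Ptgs2, cyclooxygenase-2, fell to 752 and 784 TPM in the ADT libraries, against 1478 and 1445 TPM in the DMSO libraries. Nfkbia and Tnfaip3, feedback inhibitors of the pathway, rose by 1.10 and 0.97 on the log2 scale, and Bcl3, a nuclear partner of its factors, by 1.16.

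Interferon-stimulated genes were higher in most cases. Of 28 tested, 21 rose and 4 fell, 11 of the rises by 2-fold or more, with a median log2 difference of 0.74. Isg15, a ubiquitin-like protein, had 132 and 128 TPM in the ADT libraries, against 15.6 and 15.01 TPM in the DMSO libraries. Oas1a, a sensor that makes oligoadenylate, had 16.04 and 17.8 TPM in the ADT libraries, against 1.52 and 1.54 TPM in the DMSO libraries. Bst2, tetherin, had 196 and 192 TPM in the ADT libraries, against 50.2 and 52.6 TPM in the DMSO libraries. Not all classical members followed: Ifit3, Ifit2, Gbp2 and Ifi35 were the 4 that fell, Ifi35 no longer passing after median-of-ratios scaling (adjusted p = 0.12 by limma) or without the second ADT or first DMSO library (0.054 and 0.061), and Ifit1 did not pass, with 15.8 and 16.1 TPM in the ADT libraries, against 14.3 and 14.3 TPM in the DMSO libraries.

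Class I antigen presentation leaned the same way, with 9 of 15 genes higher and 2 lower. H2-K1, a class I heavy chain, had 188 and 186 TPM in the ADT libraries, against 74.8 and 73.2 TPM in the DMSO libraries. B2m, its light chain, had 1401 and 1379 TPM in the ADT libraries, against 911 and 906 TPM in the DMSO libraries. Psmb8, an immunoproteasome subunit, had 60.8 and 52.7 TPM in the ADT libraries, against 7.01 and 8.58 TPM in the DMSO libraries. The 2 that fell were the peptide transporter genes Tap1 and Tap2, by 0.87 and 0.60 on the log2 scale. The H2 genes share near-identical stretches, so their single values are uncertain. Class II genes were low in both groups: H2-Ab1 had 9.83 and 8.56 TPM in the ADT libraries, against 1.67 and 1.3 TPM in the DMSO libraries, and 2 of 5 tested rose and 2 fell.

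Growth factors moved in both directions by large amounts. Of 29 tested, 12 rose (41.4%, against 31.1% of all genes) and 15 fell (51.7%, against 42.9%). By 2-fold or more, 8 rose and 12 fell. Fgf10, a signal from stroma to epithelium in prostate development, had 3.59 and 4.03 TPM in the ADT libraries, against 117 and 117 TPM in the DMSO libraries. The related Fgf7, Fgf2 and Hgf, the ligand of Met, fell by 1.90, 2.28 and 1.91 on the log2 scale. On the other side, Hbegf, an EGF receptor ligand, had 203 and 204 TPM in the ADT libraries, against 38.99 and 39.9 TPM in the DMSO libraries. Vegfa, the main signal for vessel growth, had 393 and 397 TPM in the ADT libraries, against 145 and 143 TPM in the DMSO libraries. Areg, Pdgfa and Vegfc rose too, by 3.16, 1.78 and 1.90, whereas Vegfd, like Vegfc a signal for lymph vessels, fell by 4.48. In the libraries with TGF-beta1 alone, Fgf10 stood at 14.6 and 15.5 TPM, between the ADT and DMSO levels.

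Receptors for growth factors were lower in 12 of 18 genes tested and higher in 3. Ddr2, a collagen-activated kinase, had 85.2 and 87.98 TPM in the ADT libraries, against 265 and 259 TPM in the DMSO libraries, and its relative Ddr1 fell by 1.96 on the log2 scale. Igf1r, the IGF1 receptor, had 11.1 and 11.5 TPM in the ADT libraries, against 40.3 and 41.6 TPM in the DMSO libraries. Pdgfrb, a PDGF receptor, fell by 0.22, little more than the shift that another scaling makes. The Gas6 receptors did not follow their ligand as a group, with Axl at -0.60, Tyro3 at 0.81 and Mertk not passing.

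In the IGF axis, 10 of 16 genes fell (62.5%, against 42.9% of all genes) and 5 rose (31.25%, against 31.1%). Igfbp4, the most abundant member, had 593 and 599.9 TPM in the ADT libraries, against 2251 and 2285 TPM in the DMSO libraries. Pappa, the protease that cuts it, had 8.94 and 8.65 TPM in the ADT libraries, against 58.8 and 61.2 TPM in the DMSO libraries. The ligands Igf1 and Igf2 fell by 3.90 and 3.41 on the log2 scale. Htra1, a protease that also cuts IGF binding proteins, rose to 493 and 490.0 TPM in the ADT libraries, against 129 and 123 TPM in the DMSO libraries. Igfbp3 rose by 1.70, so the binding proteins did not move as one.

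Wnt signalling genes fell in 19 of 31 cases (61.3%, against 42.9% of all genes) and rose in 9 (29.0%, against 31.1%). Rspo3, which strengthens Wnt signals, had 1.28 and 1.07 TPM in the ADT libraries, against 36.3 and 33.8 TPM in the DMSO libraries, and Rspo2 fell by 3.54. Rspo1, of the same family, rose by 3.40 on the log2 scale. Fzd1, a Wnt receptor, had 25.1 and 24.95 TPM in the ADT libraries, against 143 and 147 TPM in the DMSO libraries. Lrp6, its coreceptor, had 27.9 and 27.96 TPM in the ADT libraries, against 74.0 and 74.2 TPM in the DMSO libraries. The ligands Wnt10b and Wnt11 rose by 2.09 and 2.51.

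Of 16 BMP and activin genes that could be tested, 13 fell and 1 rose, with a median of -1.22, while 5 more of the list are among the 53 genes left out. Fst, follistatin, which traps activin, had 10.98 and 10.3 TPM in the ADT libraries, against 290.4 and 295 TPM in the DMSO libraries. Grem1, a secreted BMP antagonist, had 284 and 297 TPM in the ADT libraries, against 1152 and 1131 TPM in the DMSO libraries. Bmper, a BMP-binding protein, had 27.5 and 29.7 TPM in the ADT libraries, against 317 and 309.6 TPM in the DMSO libraries. Several of the falls thus were antagonists, and Chrd, chordin, fell as well, by 2.43.

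Of 17 Notch and hedgehog genes, 5 rose (29.4%, against 31.1% of all genes), 5 fell (29.4%, against 42.9%) and 7 did not pass. Jag1, a Notch ligand, had 27.8 and 29.01 TPM in the ADT libraries, against 6.91 and 7.15 TPM in the DMSO libraries. Gas1, a hedgehog coreceptor, had 32.04 and 31.8 TPM in the ADT libraries, against 123 and 141 TPM in the DMSO libraries and 8.41 and 9.34 TPM in those with TGF-beta1 alone. In the list of YAP targets, genes of a growth pathway that senses stiffness, 9 of 12 fell and 3 did not pass, with 1 more among the genes left out. F3, tissue factor, had 73.1 and 74.7 TPM in the ADT libraries, against 806 and 803 TPM in the DMSO libraries. Amotl2, a feedback inhibitor of YAP, had 133 and 135 TPM in the ADT libraries, against 414 and 403 TPM in the DMSO libraries. Ankrd1, a widely used readout of YAP, did not pass (adjusted p = 0.81 by limma), but passed as higher after median-of-ratios scaling at a log2 difference of 0.13, with 341 and 332 TPM in the ADT libraries, against 330.1 and 348 TPM in the DMSO libraries.

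Glycolysis genes and hypoxia-induced genes rose. Of 25 tested, 21 rose and 1 fell, with a median log2 difference of 0.91. Slc16a3, the lactate exporter MCT4, had 431 and 424 TPM in the ADT libraries, against 46.3 and 46.3 TPM in the DMSO libraries. Egln3, a prolyl hydroxylase induced by hypoxia, had 238 and 243 TPM in the ADT libraries, against 15.8 and 13.4 TPM in the DMSO libraries. Tpi1, triosephosphate isomerase, had 2019 and 2073 TPM in the ADT libraries, against 684 and 690.3 TPM in the DMSO libraries. Gapdh, often used as a reference gene, had 4472 and 4389.7 TPM in the ADT libraries, against 1777 and 1770.5 TPM in the DMSO libraries. The 1 gene that fell was Adm, adrenomedullin, by 1.97 on the log2 scale. Respiratory chain genes moved little, with 17 of 30 higher and 5 lower, and a largest log2 difference of 0.95 for Cycs, cytochrome c.

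Genes driven by ATF4, the factor that answers amino acid shortage, rose. Of 25 tested, 22 rose and 2 fell, 15 of the rises by 2-fold or more, with a median of 1.10. Atf4 itself had 817 and 804 TPM in the ADT libraries, against 366 and 368 TPM in the DMSO libraries. Psat1, of serine synthesis, had 794 and 782 TPM in the ADT libraries, against 353 and 338 TPM in the DMSO libraries. Asns, asparagine synthetase, had 391 and 402 TPM in the ADT libraries, against 154 and 158 TPM in the DMSO libraries. Ddit4, an inhibitor of mTOR complex 1, had 544 and 543 TPM in the ADT libraries, against 95.6 and 92.7 TPM in the DMSO libraries. Fgf21, above, is a member of this list too. The exceptions were Atf5 and Sesn2, which fell, and Ddit3 (CHOP), which did not pass. Sesn2 is also a p53 target.

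The unfolded protein response of the endoplasmic reticulum was only modestly changed, with 12 of 18 genes higher, 5 lower and 1 change of 2-fold or more. Hspa5, the chaperone BiP, had 2125 and 2097 TPM in the ADT libraries, against 1312 and 1285 TPM in the DMSO libraries and 2681 and 2717 TPM in those with TGF-beta1 alone. Dnajb9, a cochaperone, fell to 30.5 and 29.1 TPM in the ADT libraries, against 61.5 and 62.7 TPM in the DMSO libraries. Of 30 genes of cholesterol and fatty acid synthesis, 21 rose and 5 fell, most by less than 2-fold. Fdps, a mevalonate pathway enzyme, had 502 and 486 TPM in the ADT libraries, against 275 and 272 TPM in the DMSO libraries.

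Cytosolic ribosomal protein genes rose in 44 of 45 cases, by a median of 0.41 on the log2 scale, and 2 rose by 2-fold or more. Those were Rps2, at 5075 and 4994 TPM in the ADT libraries, against 2368 and 2393 TPM in the DMSO libraries, and Rpl8, at 1.04. The table holds many pseudogene copies of such genes, so how reads were split among them is uncertain. Genes of oxidative stress defence, many of them targets of NRF2, fell in 17 of 23 cases and rose in 5. Gpx3, a secreted glutathione peroxidase, had 28.5 and 29.03 TPM in the ADT libraries, against 500.3 and 498 TPM in the DMSO libraries. Hmox1, heme oxygenase-1, had 209 and 203 TPM in the ADT libraries, against 568 and 579 TPM in the DMSO libraries. Nqo1, a quinone reductase, had 87.1 and 89.4 TPM in the ADT libraries, against 256 and 247 TPM in the DMSO libraries.

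Of 19 genes of steroid hormone receptors and hormone response, 6 rose (31.6%, against 31.1% of all genes) and 10 fell (52.6%, against 42.9%). Nr3c1, the glucocorticoid receptor, had 14.3 and 15.8 TPM in the ADT libraries, against 44.7 and 44.1 TPM in the DMSO libraries. Fkbp5, a cochaperone that androgens and glucocorticoids induce, was higher, with 74.2 and 75.3 TPM in the ADT libraries, against 18.96 and 22.98 TPM in the DMSO libraries. Its relative Fkbp4 had 387 and 387 TPM in the ADT libraries, against 92.1 and 96.9 TPM in the DMSO libraries. In the libraries with TGF-beta1 alone, Fkbp5 stood near the ADT level, at 67.4 and 64.6 TPM.

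Retinoid and aryl hydrocarbon genes fell in 10 of 17 cases (58.8%, against 42.9% of all genes) and rose in 6 (35.3%, against 31.1%). Aldh1a1, a retinoic acid synthase, had 0 and 0.047 TPM in the ADT libraries, against 25.9 and 25.2 TPM in the DMSO libraries. Cyp1b1, an enzyme induced by the aryl hydrocarbon receptor, had 48.4 and 51.4 TPM in the ADT libraries, against 205 and 204 TPM in the DMSO libraries. Rbp4, which carries retinol in blood, rose to 15.4 and 10.9 TPM in the ADT libraries, against 0.472 and 0.265 TPM in the DMSO libraries.

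Of 50 tested transcription factors that mark the origin of mesenchymal cells, 16 rose (32%, against 31.1% of all genes) and 26 fell (52%, against 42.9%). Six2 had 0.953 and 0.676 TPM in the ADT libraries, against 35.9 and 35.5 TPM in the DMSO libraries. Foxp2 had 0.0615 and 0.0595 TPM in the ADT libraries, against 14.5 and 12.8 TPM in the DMSO libraries. Prrx1, a regulator of limb and stromal mesenchyme, had 53.6 and 57.0 TPM in the ADT libraries, against 158 and 153 TPM in the DMSO libraries and 47.5 and 50.05 TPM in those with TGF-beta1 alone. Sox4, which guides progenitor and tumour cells, rose to 159 and 165 TPM in the ADT libraries, against 87.9 and 87.7 TPM in the DMSO libraries, a log2 difference of 0.87 ± 0.03 (SE).

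Of 34 Hox genes, which record position along the body, 10 rose (29.4%, against 31.1% of all genes) and 18 fell (52.9%, against 42.9%). Of these changes, 5 reached 2-fold, as did those of 22.7% of all genes. Hoxa13, a gene of the most posterior group, had 16.6 and 15.8 TPM in the ADT libraries, against 29.8 and 30.1 TPM in the DMSO libraries. Hoxa10 had 28.1 and 28.6 TPM in the ADT libraries, against 57.4 and 56.5 TPM in the DMSO libraries. Hoxa4, of a more anterior group, had 9.57 and 9.9 TPM in the ADT libraries, against 2 and 2.02 TPM in the DMSO libraries. Hoxc13 was at 0 in both ADT libraries and at 4.4 and 5.09 TPM in the DMSO libraries.

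Subunits of SWI/SNF, the complex that moves nucleosomes, were higher in 16 of 23 cases and lower in 5. Phf10, a subunit of the PBAF form, had 100.1 and 101 TPM in the ADT libraries, against 28.8 and 30.7 TPM in the DMSO libraries. The alternative motors of the complex differed: Smarca2 had 14.2 and 14.5 TPM in the ADT libraries, against 35.2 and 36.5 TPM in the DMSO libraries, while Smarca4 did not pass, with 83.7 and 82.9 TPM in the ADT libraries, against 81.7 and 84.5 TPM in the DMSO libraries. Immediate early genes, the first answer to growth signals, were split, with 11 of 26 higher (42.3%, against 31.1% of all genes) and 11 lower (42.3%, against 42.9%). Klf4 had 13.2 and 12.7 TPM in the ADT libraries, against 103 and 99.8 TPM in the DMSO libraries. Ier3 had 1326 and 1323 TPM in the ADT libraries, against 353 and 359 TPM in the DMSO libraries.

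**Figure D5:**
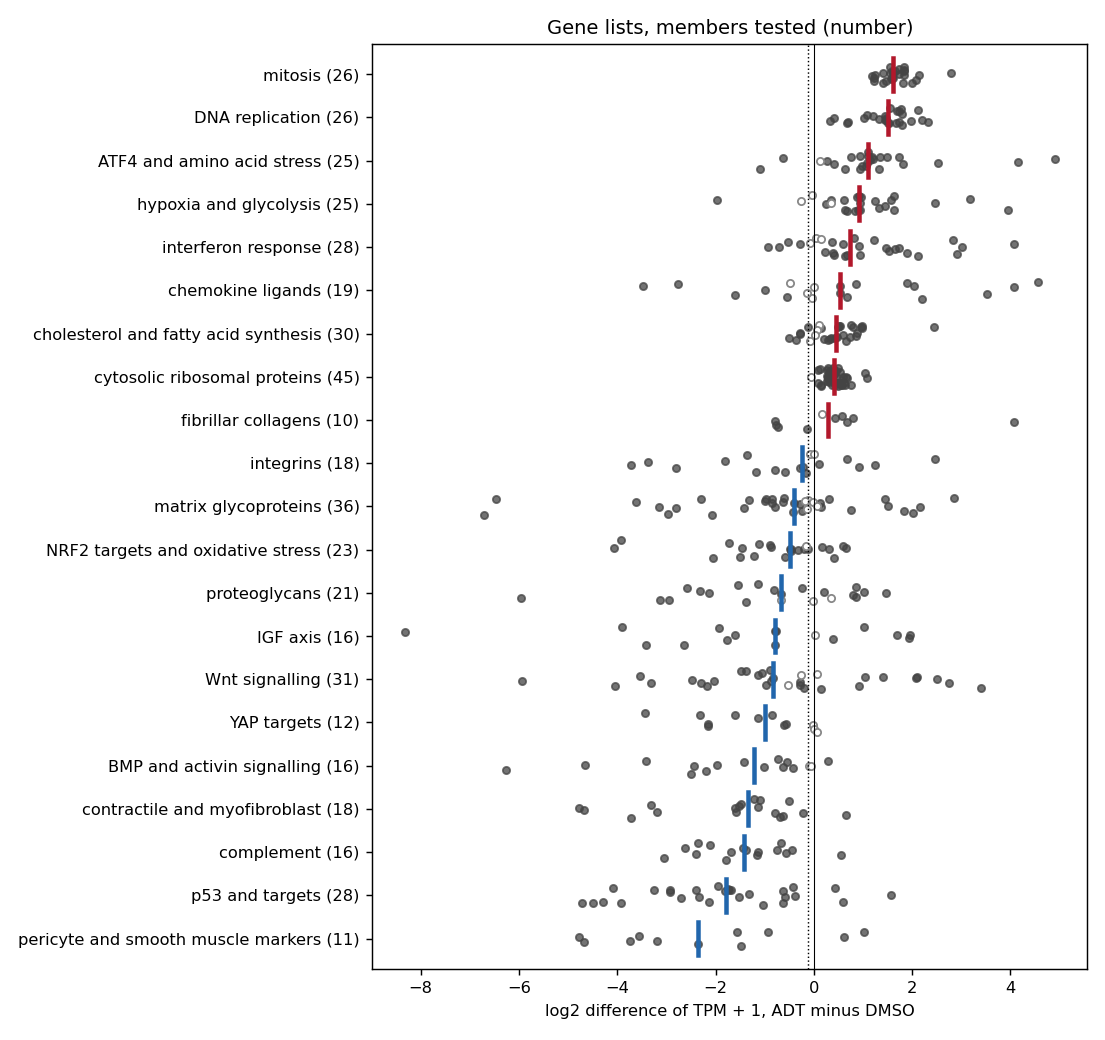
Log2 difference of TPM + 1, ADT minus DMSO, for the tested members of 21 gene lists, 1 dot a gene (filled, adjusted p under 0.05 by limma), with the coloured bar the list's median and the dotted line the median of all genes at -0.13. The medians run from -2.35 for pericyte and smooth muscle markers to 1.62 for mitosis genes.

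The other day-7 groups were used to see whether the differences are particular to the DMSO libraries. Against the mean of all 4 day-7 groups, 10675 genes passed by limma (71.5%), and against the mean of 3 such groups, without the libraries with both agents, 11470 passed (76.8%). These contrasts share the ADT and DMSO libraries with the main one, so their values are only set side by side. Of the 4646 genes called higher than in DMSO, both ADT libraries lay above all 6 DMSO, enzalutamide and TGF-beta1 libraries in 3892 (83.8%). Of the 6414 called lower, both lay below all 6 in 5234 (81.6%).

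The medians of 4 lists were also set against each day-7 group. The median difference of the p53 genes was -0.02 against both agents, -1.57 against TGF-beta1, -1.82 against enzalutamide and -1.78 against DMSO. For mitosis genes it was 0.00082 against both agents, 2.93 against TGF-beta1, 2.54 against enzalutamide and 1.62 against DMSO. Contractile genes stood at 0.01 against both agents, -1.12 against TGF-beta1, -1.23 against enzalutamide and -1.35 against DMSO. Interferon genes stood at 0.06 against both agents, 2.03 against TGF-beta1, 1.29 against enzalutamide and 0.74 against DMSO. Thus the gaps to the libraries with enzalutamide alone and TGF-beta1 alone were of the same sign as the gap to DMSO in these 4 lists, and the gap to the libraries with both agents was near 0. Not every list kept its sign. The unfolded protein response stood at 0.24 against DMSO and -0.32 against TGF-beta1. Immediate early genes stood at 0.15 against DMSO, -0.12 against enzalutamide and -0.23 against TGF-beta1.

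For some genes the direction of the difference depends on which day-7 fibroblasts are used. Of the 227 genes named here that passed against DMSO, both libraries with TGF-beta1 alone lay on the same side of the ADT libraries as DMSO for 198, on the opposite side for 23, and overlapped the ADT libraries for 6. Of the 23, 13 were higher and 10 lower in the ADT libraries than in DMSO. Itga5 had 836 and 845 TPM in the ADT libraries, against 1384 and 1380.0 TPM in the libraries with TGF-beta1, and Jag1 had 27.8 and 29.01 TPM in the ADT libraries, against 73.6 and 72.6 TPM there. Hbegf had 203 and 204 TPM in the ADT libraries, against 559.5 and 554 TPM there, and Vegfa had 393 and 397 TPM in the ADT libraries, against 572 and 581 TPM there. The others with higher levels in the ADT libraries than in DMSO but lower than with TGF-beta1 were Col7a1, Cspg4, Hspa5, Il6, Itgb3, Lif, Plk3, Tnc and Wnt11. Those with lower levels in the ADT libraries than in DMSO but higher than with TGF-beta1 were Adm, Ccl7, Gas1, Gbp2, Ifi35, Ifit2, Ifit3, Prrx1, Sesn2 and Tap1. The 6 that overlapped were Cfp, Fap, Hgf, Rspo2, Smarca2 and Tap2.

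Against enzalutamide alone, 220 of the 227 genes lay on the same side as against DMSO. Cspg4, Ifit3 and Plk3 lay on the opposite side, and Cfp, Fap, Ifi35 and Pdgfrb overlapped. These single differences were not tested.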

How the data were processed

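RNA was measured in 2 libraries each of mouse fibroblasts labelled as from ADT mice and as given DMSO, beside 3 other fibroblast groups. Per the labels' protocols, RNA was extracted with Trizol from cells grown in DMEM with 10% FBS, and libraries were made with the NEBNext Ultra kit for a HiSeq instrument. The deposited table holds TPM per gene symbol, per the file headers, and no positions. HISAT2, HTSeq, DESeq2 and the builds mm10 and hg19 stand in the submitters' processing notes, with neither version nor role. No mouse genome was used here, so sequences and coordinates are not given.

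A gene's TPM values in a library are multiples of what 1 read is worth. Solving that step across columns (within 0.02 reads for 17519 genes, values within 0.05 reads called whole) gave the depths, and showed 53 genes in the DMSO columns at 0.3 times whole reads, which were left out. Of these, 51 were plain and 2 of 11 unclear ones were settled by the column totals. The recovered depths cover counting error only.

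Genes at 1 TPM or more in at least 2 columns were kept (14988), and 14935 were tested by limma (version 3.58.1, R 4.3.3), fitted to log2(TPM + 1) with a mean-variance trend, 5 groups of 2 libraries and 5 residual degrees of freedom. A pseudocount of 1 understates changes of low genes. Tests are two-sided, adjusted by Benjamini-Hochberg, with a threshold of 0.05. Libraries that share a replicate number did not deviate together: the correlation of their deviations was 0.0125 between ADT and DMSO and ran from -0.0279 to 0.0930 over all pairs of groups, so samples were not paired.

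The comparison, the gene lists and the rule for named genes were chosen with earlier results of these data known. The rule takes the 12 largest rises and 12 largest falls with an official symbol, the 4 or fewer members per list that have the lowest p, and 21 genes of general interest such as Trp53, Acta2 and Vim. For these, the adjusted p is under 0.05, the mean reaches 1 TPM in a group and the libraries of the groups do not overlap, which the 21 need not meet. A further 69 list members were named after their values were seen. A few genes are not reported here. The alternatives were another pseudocount, no filter, median-of-ratios scaling, other sets of libraries or genes, a replicate block and each library left out. The fit of recovered reads with voom, the mean of 3 day-7 groups and the comparison with both agents were added after the data were seen.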

Additional observations from a re-analysis of the deposited data

How the results depend on the processing

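The count of 11060 genes called between ADT and DMSO fibroblasts ran from 10276 to 12037 over all alternatives, and from 10276 to 10349 with 1 library left out. Such a fit takes the spread of the single library left from the other groups. With 1 library left out, 4301 to 4357 genes were called higher, 5919 to 6036 lower, and 3355 to 3436 by 2-fold or more. For the mean of 4 day-7 groups the counts with 1 library left out ran from 9431 to 10548 called, 4059 to 4553 higher, 5285 to 6006 lower and 1851 to 1913 by 2-fold. With the replicate number as a block, 11028 genes were called against DMSO and 10637 against the mean of 4, though the numbers do not pair the libraries, and of the genes named only Cfp lost its call (adjusted p = 0.061 by limma). The voom fit of recovered reads, 99.4% of solved values being whole, called 11142 genes, 5724 higher and 5418 lower. Scaling by median of ratios gave 5493 higher and 5532 lower against DMSO. The 2-fold count against the mean of 4 groups, 1852, became 2901 with a pseudocount of 0.1 and 3043 over 3 groups without the libraries with both agents; the cause was not tested beyond this construction.

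No gene named as having risen or fallen changed its direction under the alternatives run. Krt19 did not pass without the second ADT library (adjusted p = 0.071), Rn7s1 without either ADT library or the second DMSO library (0.059 to 0.062), and Cfp under 6 alternatives (0.058 to 0.26), while Fap and Ifi35 are given in the report. The genes that changed sign had not passed. After scaling, the log2 difference became 0.13 for Ankrd1, 0.10 for Ccl2 and 0.13 for Dcn, and with voom 0.15, 0.12 and 0.15. With 1 library left out, Ankrd1 ran from -0.049 to 0.028, Dcn from -0.053 to 0.024, Epcam from -0.20 to 0.49, Il11 from -0.0080 to 0.14 and Smarca4 from -0.020 to 0.028. Depth limits low genes most: Epcam, Cfp and Fap rest on few reads.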

Other observations

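Imprinted genes, which are read from the copy of 1 parent only, were looked at after 2 of them stood among the large falls, so their count is a description. Of 30 listed, 25 could be tested, of which 20 were lower, 1 was higher and 4 did not pass by limma, against 42.9% lower and 31.1% higher over all genes. Of the 20, 13 were lower by 2-fold or more, and the median log2 difference was -1.02. Peg3, a zinc finger gene read from the father's copy, had 0.51 and 0.666 TPM in the ADT libraries, against 46.2 and 45.4 TPM in the DMSO libraries. Igf2, a growth factor read from the father's copy, had 0.439 and 0.574 TPM in the ADT libraries, against 14.7 and 15.3 TPM in the DMSO libraries. H19, the noncoding neighbour of Igf2 that is read from the mother's copy, was the 1 that was higher, with 14.4 and 14.8 TPM in the ADT libraries, against 2.34 and 0.902 TPM in the DMSO libraries. At the locus of Dio3, the noncoding Meg3 had 24.5 and 26.1 TPM in the ADT libraries, against 143 and 140.2 TPM in the DMSO libraries, so the genes of both parents' copies were lower there. Ndn, necdin, had 38.9 and 40.1 TPM in the ADT libraries, against 185 and 185 TPM in the DMSO libraries. Zim1 was at 0 in both ADT libraries and at 4.73 and 4.67 TPM in the DMSO libraries.

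The Y-linked genes Ddx3y, Uty, Kdm5d and Eif2s3y were present in all 4 libraries and lower in the ADT libraries, by -1.23, -0.70, -0.71 and -0.75 on the log2 scale. Ddx3y, an RNA helicase, had 32.5 and 32.7 TPM in the ADT libraries, against 79.3 and 76.7 TPM in the DMSO libraries. Xist, which silences an X chromosome in female cells, was at 0 in both ADT libraries and at 0.0171 and 0.0288 TPM in the DMSO libraries.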
